A study of Mus musculus with 12 samples.

Results

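The genes described here are the 7 enzymes that carry carbon along the mevalonate pathway as far as squalene: Hmgcs1, Mvk, Pmvk, Mvd, Idi1, Fdps and Fdft1. They were chosen by symbol as the textbook steps of the pathway, with earlier results of these data known. Every probe set that names exactly 1 of these symbols was taken, which gave 18 probe sets for 7 of the 18194 genes tested. The probe set with the highest mean stands for each gene, and the other probe sets are described separately. All 7 lay above the median gene mean of 6.82, so a filter on low values removed none of them.

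The arrays measured RNA of BNL CL.2 cells, a mouse line of liver origin, after 24 h of culture. In FAC, ferric ammonium citrate, a salt that delivers iron to cells, was present at 100 micromolar beside an insert holding further BNL CL.2 cells. In RAW_FAC the same dose was given and macrophages of the mouse line RAW 264.7 were in the insert. In RAW those macrophages were present without added iron. In alone the insert held BNL CL.2 cells and no iron was added. Each of the 4 groups had 3 arrays, all from 1 cell line in DMEM with serum. Nothing in the labels says that replicates came from separate cultures, so p values here cover the spread among these arrays, which may be technical. In bulk RNA, fewer cells of a type and less RNA per cell cannot be told apart.

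The mevalonate pathway builds 5-carbon isoprene units from acetyl-CoA and joins them into farnesyl diphosphate and squalene, the last open-chain precursor of cholesterol. Farnesyl diphosphate also feeds dolichol, ubiquinone and protein prenylation. The liver is a main site of cholesterol synthesis, and the genes of this pathway are classical targets of the sterol-regulated SREBP transcription factors, which bind sterol regulatory elements, often together with the CCAAT-binding factor NF-Y.

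RefSeq promoter windows (GRCm38.p6, 250 bases before to 50 bases after a start site) were matched by symbol for 5 of the 7 genes, and Fdps and Fdft1 are named without one. The 250 bases before the start site are printed for Hmgcs1, Mvk, Mvd and Idi1, because each holds a sterol element or more than 1 CCAAT box, and are written 5′ to 3′ along the gene. Capitals mark a sterol element (TCACNCCAC) or a CCAAT box on either strand, and no matches overlap one another. Hmgcs1 lies at chr13:119690101-119690350 on the plus strand, Mvk at chr5:114444019-114444268 on the plus strand, Mvd at chr8:122443423-122443672 on the minus strand and Idi1 at chr13:8885356-8885605 on the plus strand.
Hmgcs1: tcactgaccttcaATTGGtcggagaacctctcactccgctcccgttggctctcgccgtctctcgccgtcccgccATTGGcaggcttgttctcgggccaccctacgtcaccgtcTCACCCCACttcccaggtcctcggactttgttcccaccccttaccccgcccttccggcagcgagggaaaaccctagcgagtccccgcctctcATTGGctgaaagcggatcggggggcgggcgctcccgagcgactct
Mvk: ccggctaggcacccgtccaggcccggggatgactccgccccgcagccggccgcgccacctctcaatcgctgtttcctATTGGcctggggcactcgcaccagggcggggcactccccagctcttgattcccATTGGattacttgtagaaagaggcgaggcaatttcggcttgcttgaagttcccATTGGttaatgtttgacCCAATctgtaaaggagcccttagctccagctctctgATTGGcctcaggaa
Mvd: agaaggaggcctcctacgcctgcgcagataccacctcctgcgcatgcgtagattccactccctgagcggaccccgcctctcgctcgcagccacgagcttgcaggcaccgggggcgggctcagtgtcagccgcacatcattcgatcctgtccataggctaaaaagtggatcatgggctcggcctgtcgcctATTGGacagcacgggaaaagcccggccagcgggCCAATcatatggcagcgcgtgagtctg
Idi1: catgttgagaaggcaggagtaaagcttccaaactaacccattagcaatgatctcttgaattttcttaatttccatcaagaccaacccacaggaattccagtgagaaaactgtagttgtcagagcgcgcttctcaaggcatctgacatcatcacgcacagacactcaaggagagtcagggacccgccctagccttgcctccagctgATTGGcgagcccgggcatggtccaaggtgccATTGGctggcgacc

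Both strands of each 300-base window were searched. The sterol element was found once, as TCACCCCAC 137 bases before the start site of Hmgcs1 (position -137), and 1.24% of all 32851 promoter windows hold it. A CCAAT box was found in all 5 genes with a window, against 37.4% of all windows. Mvk had 5 CCAAT boxes and Hmgcs1 had 4, of which 3 lie in the bases printed. Mvd and Idi1 had 2 each, and Pmvk had 1 in the first of its 2 windows and 0 in the second. The GC box GGGCGG was found in Hmgcs1, Mvk, Mvd and Idi1, against 35.7% of all windows, and the E-box CACGTG in 0 of the 5 genes, against 7.15% of all windows. A match describes these letters in these windows and does not show binding.

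The deposited values are log2 signals, and the median of an array lay between 5.63 and 5.68. Arrays of a group correlated at 0.997 to 0.998 across genes, and arrays of different groups at 0.996 to 0.999. Tfrc, the transferrin receptor, whose mRNA is lowered when cells are iron-loaded, fell by 1.22 on the log2 scale averaged over both iron comparisons (SE 0.152, limma adjusted p = 0.0398). This call was lost in several of the alternative settings described at the end. Of the hepatocyte markers, 8 of 9 were measured, and Alb, serum albumin, ran from 5.02 to 5.38, below the median of each array, so this marker of mature hepatocytes was dim. Afp, the fetal liver protein alpha-fetoprotein, averaged 9.04, Hnf4a, a liver transcription factor, 10.45, and the epithelial genes Krt8, Krt18 and Cdh1 14.28, 14.07 and 12.72. The hepatocyte markers Ttr and Apoa1 averaged 6.49 and 6.24, below the median gene mean of 6.82. Of the 6 fibroblast and mesenchymal markers, Vim averaged 14.14, and the others ran from 4.65 for Col1a1 to 6.27 for Acta2. The 12 macrophage markers summed to 4550 to 5170 in FAC, 4870 to 5340 in RAW_FAC, 4530 to 4820 in RAW and 4570 to 5090 in alone on the linear scale, and 0 of the 12 passed in any comparison in either fit. Most of these sums is the value of Cd14, which averaged 12.04 (log2), while the other 11 averaged from 3.50 for Ptprc to 7.53 for Cd53. RNA 3′ over 5′ ratios of the actin control probes ran from 0.32 to 0.42 (log2) over all 12 arrays.

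All 7 genes had a higher mean signal with iron, both in cells cultured with BNL CL.2 inserts and in cells cultured with macrophage inserts. Averaged over both comparisons, the difference ran from 0.25 (log2) for Mvk to 0.63 for Mvd, with a median of 0.44, against a median of -0.0019 over all 18194 genes. The 7 genes in 6 same-number pairs of arrays gave 42 differences, which share those arrays and are not independent, and 41 of them were higher with iron. Of the 7 genes, 6 were higher in 6 of 6 pairs, as were 4.14% of all genes. Whether this passed a test over all genes depended on how the replicate numbers were treated. In the limma fit without the replicate number 0 of 7 passed (0.0055% of all genes passed in either direction). All 7 members had an unadjusted p under 0.05 in that fit, as did 1185 of all 18194 genes. With the replicate number as a block, an additive term for each number, 6 of 7 rose, against 0.638% of all genes. The genes were chosen with earlier results known, so the shares of all genes are a description and no test of the set.

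Hmgcs1 encodes the cytosolic HMG-CoA synthase, which condenses acetyl-CoA and acetoacetyl-CoA at the head of the pathway. Its log2 signal was 12.39, 12.66 and 12.70 in the 3 FAC arrays, against 12.03, 12.03 and 12.49 in the 3 alone arrays. It was 12.37, 12.48 and 12.61 in RAW_FAC, against 12.09, 12.08 and 12.36 in RAW. The third alone array lay above the first FAC array, while all RAW_FAC arrays lay above all RAW arrays. The difference was 0.40 ± 0.13 (SE, n = 3 arrays per group) for FAC against alone and 0.31 ± 0.13 for RAW_FAC against RAW.

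Mvk, mevalonate kinase, adds the first phosphate to mevalonate. Its signal was 8.24, 8.28 and 8.55 in FAC, against 8.25, 7.97 and 8.25 in alone. With macrophages it was 8.29, 8.33 and 8.73 in RAW_FAC, against 8.11, 8.09 and 8.28 in RAW. The first FAC array lay just below the first alone array (a difference of -0.00827), the single one of the 42 differences that was not higher with iron, and RAW_FAC and RAW did not overlap. Mvk had the smallest differences of the 7, 0.20 ± 0.13 (SE) for FAC against alone and 0.29 ± 0.13 for RAW_FAC against RAW.

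Pmvk, phosphomevalonate kinase, adds the second phosphate. In FAC it had 9.16, 9.36 and 9.43, against 8.98, 8.63 and 9.20 in alone. In RAW_FAC it had 9.26, 9.31 and 9.48, against 8.95, 8.78 and 9.21 in RAW. The third alone array again lay above the first FAC array, and the macrophage groups did not overlap. The difference was 0.38 ± 0.14 (SE) for FAC against alone and 0.37 ± 0.14 for RAW_FAC against RAW.

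Mvd, mevalonate diphosphate decarboxylase, makes isopentenyl diphosphate, the basic isoprene unit. FAC arrays had 8.27, 8.63 and 8.71, against 7.82, 7.59 and 8.44 in alone. RAW_FAC arrays had 8.33, 8.56 and 8.83, against 7.69, 7.81 and 8.21 in RAW. Only the third alone array reached into the FAC range, and RAW_FAC stood clear of RAW. Mvd had the largest average difference of the 7 genes, and the pairs of RAW_FAC and RAW lay close together, between 0.62 and 0.75, where those of FAC and alone spread from 0.27 to 1.04.

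Idi1, the isomerase that converts isopentenyl diphosphate to dimethylallyl diphosphate, had 12.34, 12.60 and 12.49 in FAC, against 11.82, 11.76 and 12.20 in alone. With macrophages it had 12.32, 12.42 and 12.43 in RAW_FAC, against 11.71, 11.99 and 12.28 in RAW. All 6 arrays with iron lay above all 6 without. The difference was 0.55 ± 0.14 (SE) for FAC against alone and 0.40 ± 0.14 for RAW_FAC against RAW.

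Fdps, farnesyl diphosphate synthase, joins the isoprene units and is the target of nitrogen-containing bisphosphonates. It had 12.21, 12.45 and 12.44 in FAC, against 11.75, 11.63 and 12.14 in alone. It had 12.24, 12.43 and 12.39 in RAW_FAC, against 11.69, 11.97 and 12.18 in RAW. As for Idi1, the 6 arrays with iron did not overlap the 6 without, which held for 0.291% of all genes. The difference was 0.53 ± 0.14 (SE) for FAC against alone and 0.41 ± 0.14 for RAW_FAC against RAW.

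Fdft1, squalene synthase, joins a pair of farnesyl diphosphates into squalene and commits them to sterols. It had 11.66, 11.75 and 11.95 in FAC, against 11.25, 10.85 and 11.64 in alone. It had 11.67, 11.64 and 11.82 in RAW_FAC, against 11.25, 11.15 and 11.68 in RAW. FAC lay above alone in every array, with the closest 2 at 11.66 and 11.64, and the third RAW array lay above the first and second RAW_FAC arrays. The difference was 0.54 ± 0.17 (SE) for FAC against alone and 0.35 ± 0.17 for RAW_FAC against RAW.

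**Figure D1:**
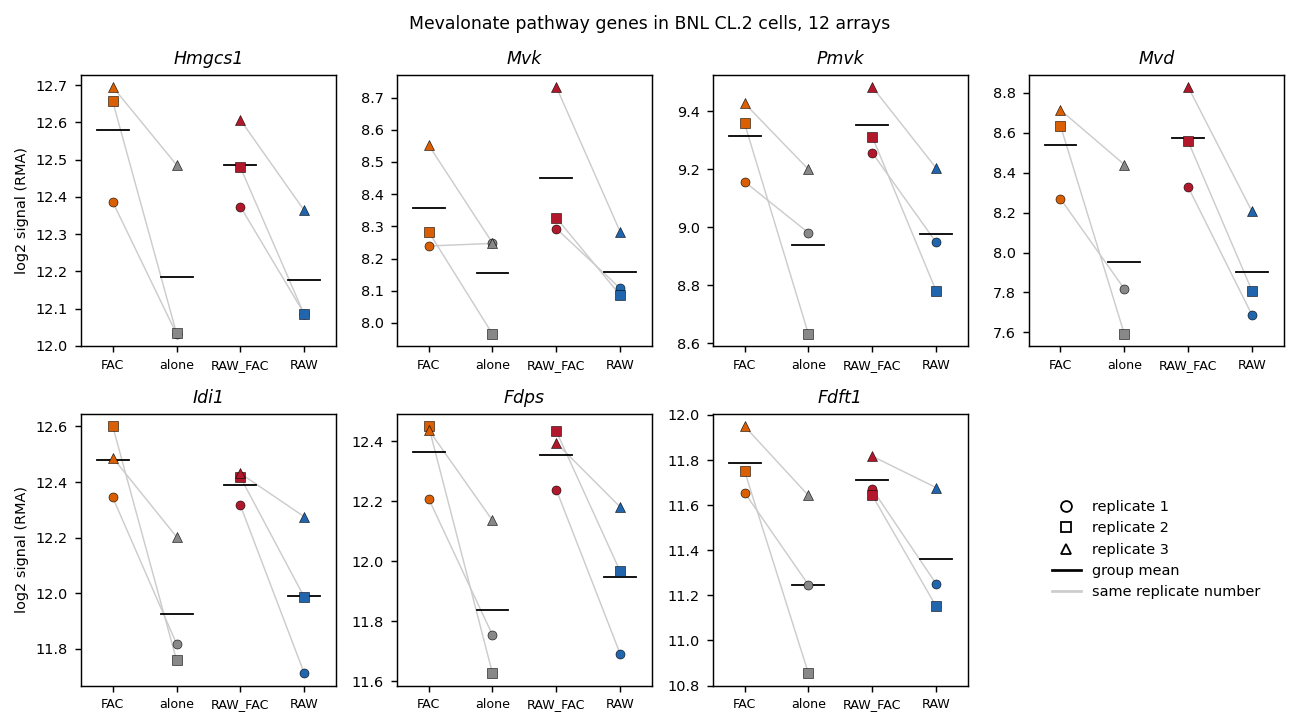
Log2 signal (RMA, y axis) of the 7 genes in each of the 12 arrays, by group (x axis), with the replicate number as the marker shape, the group mean as a bar and grey lines joining arrays of the same number. In 41 of the 42 lines the array with iron is the higher one, and the array numbered 3 is the highest of the alone arrays and of the RAW arrays in each gene.

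Neither iron comparison alone gave a call. For FAC against alone the median difference of the 7 was 0.53 and 0 of 7 passed in limma without the block (0% of all genes passed). An unadjusted p under 0.05 was found there for 6 of the 7 and for 551 of all 18194 genes. With the block 0 of 7 passed too, with adjusted p from 0.177 to 0.708, against 0.022% of all genes. For RAW_FAC against RAW the median was 0.37 and 0 of 7 passed without the block (0% of all genes). An unadjusted p under 0.05 was found there for 6 of the 7 and for 1038 of all 18194 genes. With the block 0 of 7 passed, with adjusted p from 0.0692 to 0.281 (0.0605% of all genes rose), although Mvd passed there when alone replicate 2 was left out (adjusted p = 0.0289). In RAW_FAC against alone, where both agents were added, the median was 0.46 and 0 of 7 passed in either fit, against 0% of all genes without the block and 0.143% with it. Groups that did not overlap were found in 3 of 7 genes for FAC above alone (Idi1, Fdps and Fdft1), against 3.74% of all genes. They were found in 6 of 7 for RAW_FAC above RAW, all but Fdft1, against 4.48%.

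Averaging both comparisons with the replicate block gave Hmgcs1 a difference of 0.35 ± 0.054 (SE, limma adjusted p = 0.0162), a 1.28-fold higher level with iron. Pmvk was 1.30-fold higher (0.37 ± 0.068, adjusted p = 0.0359) and Mvd 1.55-fold higher (0.63 ± 0.081, adjusted p = 0.00787). Idi1 was 1.39-fold higher (0.47 ± 0.073, adjusted p = 0.0162), and Fdps 1.38-fold higher (0.47 ± 0.070, adjusted p = 0.0150). Fdft1 was 1.36-fold higher (0.44 ± 0.075, adjusted p = 0.0245), while Mvk, at 1.19-fold, did not pass (0.25 ± 0.056, adjusted p = 0.0856). Without the block the SEs were 0.089 for Mvk to 0.15 for Mvd and the adjusted p values 0.33 to 0.70. The 95% intervals without the block stayed above 0 for all 7, from 0.06 to 0.44 for Mvk and from 0.31 to 0.94 for Mvd.

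The block rested on the observation that arrays of the same number deviated together from their group means, with residual correlations of 0.263 to 0.529 in the 18 same-number pairs. The correlation was higher between arrays of 1 iron condition (median 0.431) than across (0.315), so the SE and p of an iron comparison with the block may be too small. Each replicate number was also reduced to 1 difference, the mean of its 2 arrays with iron minus the mean of the 2 without. In limma on these, 0 of 7 passed (adjusted p from 0.0997 for Mvd to 0.435 for Mvk), against 0.0275% of all genes passing as higher. All 7 had an unadjusted p under 0.05 in that fit, as did 1450 of all 18194 genes. With the block, the count of 6 also became 1 without FAC replicate 2, RAW_FAC replicate 2 or RAW replicate 2. It became 2 without FAC replicate 1, 4 without RAW_FAC replicate 1, RAW replicate 1 or alone replicate 2, and 5 when each of the remaining 5 arrays was left out in turn (Mvk among them without alone replicate 1, adjusted p = 0.0343). Mvd passed in all 12 of these fits. Without the 4 arrays numbered 1, or the 4 numbered 2, 0 of 7 passed, and without the 4 numbered 3, 4 of 7 passed.

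**Figure D2:**
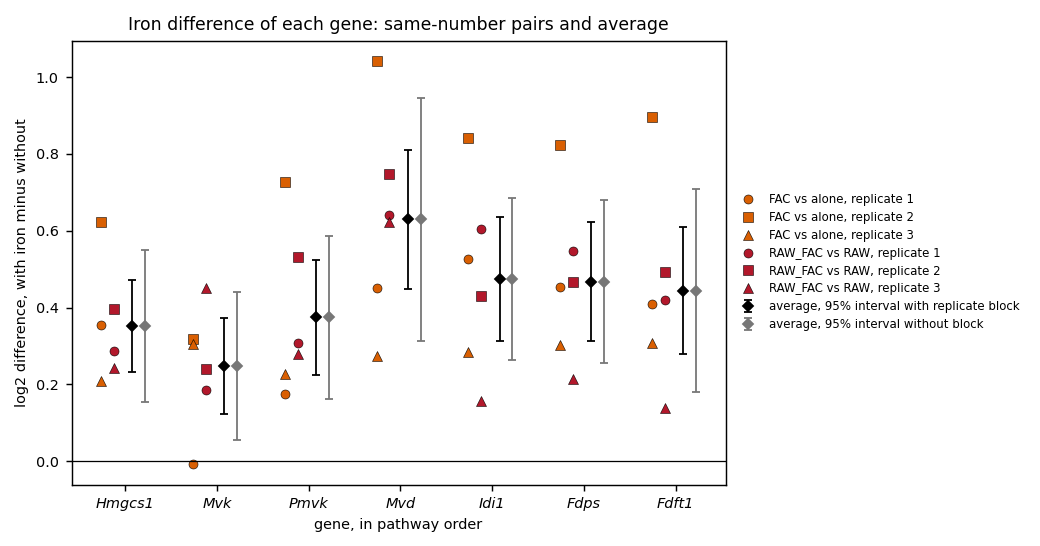
Log2 difference with iron minus without (y axis) for each gene in pathway order (x axis): the 3 pairs of FAC and alone, the 3 pairs of RAW_FAC and RAW, and the average with its 95% interval in the fits with and without the replicate block. Every average interval lies above 0, and the first pair of Mvk is the single pair below 0.

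The replicates differed in how far they moved, and they differed together. The median difference over the 7 genes was 0.409, 0.822 and 0.285 in the 3 pairs of FAC and alone, and 0.420, 0.466 and 0.243 in the 3 pairs of RAW_FAC and RAW. The third pair was the smallest in 5 of 7 genes for FAC and alone, and in 6 of 7 for RAW_FAC and RAW. The third array was also the highest of the alone arrays and the highest of the RAW arrays in 7 of 7 genes, as it was in 36.1% and 28.5% of all genes. Arrays with iron spanned a narrower range than arrays without in 6 of 7 genes, for example 0.24 against 0.55 for Fdps and 0.31 against 0.82 for Fdft1, while Mvk spanned 0.49 with iron and 0.32 without. The share of all genes was not computed for the counts of smallest pairs and of narrower ranges. The 7 genes share the arrays and moved together, so these counts are not independent and describe these samples.

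The 7 genes followed each other across the arrays. The 21 pairs of genes correlated at 0.692 to 0.985 over the 12 arrays (median 0.921), and at 0.445 to 0.973 (median 0.859) once group means were removed. The arrays are shared between the genes, so these values describe these 12 samples.

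Mean differences with the macrophage insert lay near 0 in these genes, while single pairs spread further. For RAW against alone the median was 0.04, from -0.05 for Mvd to 0.11 for Fdft1. The medians over the 7 genes in its 3 pairs were -0.063, 0.216 and 0.035. In the second pair 7 of 7 genes were higher with macrophages, against 55.9% of all genes. For RAW_FAC against FAC the median was -0.01, from -0.09 for Hmgcs1 to 0.09 for Mvk. Its pairs had medians of 0.030, -0.079 and -0.044. In both comparisons 0 of 7 passed in either fit, as did 0% of all genes. An unadjusted p under 0.05 was found for 0 members in either fit. For RAW against alone, 693 of all 18194 genes had one without the block and 1115 with it. For RAW_FAC against FAC, 574 had one without the block and 1020 with it. In 0 of 7 genes did the RAW arrays stand clear above the alone arrays (5.16% of all genes) or the RAW_FAC arrays above the FAC arrays (3.63%). Averaged over both, the difference ran from -0.05 for Hmgcs1 to 0.05 for Mvk, and the 95% intervals without the block reached from -0.32 to 0.31, both for Mvd. By this average 0 of 7 passed without the block, against 0.011% of all genes, and 0 of 7 with it, where 0.055% of all genes rose.

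The difference made by iron was compared between cultures with and without macrophages as an interaction. It ran from -0.19 for Fdft1 to 0.09 for Mvk, and 0 of 7 passed without or with the block (adjusted p = 0.999 with it, and 0% of all genes). The 95% intervals without the block were wide, from -0.72 to 0.34 for Fdft1 and from -0.55 to 0.71 for Mvd, and for each of the 7 genes a difference between the cultures as large as its average iron difference lies inside. With the block such a difference lies inside the interval for Mvk, Idi1 and Fdft1, and outside it for Hmgcs1 (-0.32 to 0.15), Pmvk (-0.30 to 0.30), Mvd (-0.28 to 0.44) and Fdps (-0.43 to 0.19).

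**Figure D3:**
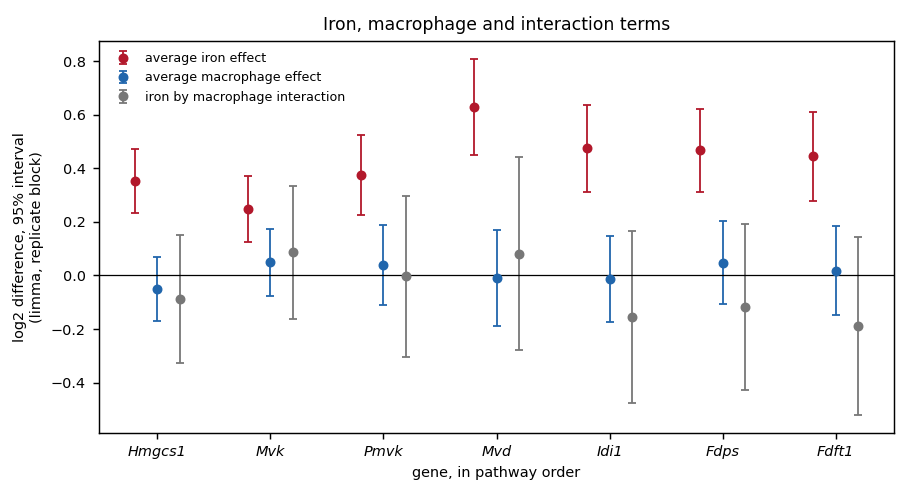
Average iron difference, average macrophage difference and their interaction (log2, y axis) for each gene (x axis), with 95% intervals from limma with the replicate block. The iron differences lie between 0.25 and 0.63, and the macrophage differences between -0.05 and 0.05.

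The other probe sets of these genes mostly gave the same direction. All 18 had a higher mean with iron when both comparisons were averaged, and 11 passed with the block in a fit over all 34958 probe sets, against 0.452% of those. Without the block 0 of 18 passed. The 5 probe sets of Hmgcs1 had differences of 0.33 to 0.46, and 4 of them passed. The second Mvd probe set had 0.39 ± 0.058 (SE with the block), against 0.63 ± 0.081 in the first, and both passed. The second Idi1 probe set had 0.29 ± 0.083 and did not pass, nor did either Mvk probe set, at 0.25 ± 0.057 and 0.17 ± 0.055.

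The weakest differences came from dim probe sets. The second Fdps probe set, at log2 signals of 3.16 to 3.50, had 0.05 ± 0.044, and the 2 Fdft1 probe sets near 5.6 had 0.10 ± 0.086 and 0.09 ± 0.063. Another dim probe set, that of Hmgcs1 at 4.25 to 5.16, had 0.46 ± 0.085 and passed. The second bright Fdft1 probe set had 0.46 ± 0.057 and passed, close to the 0.44 ± 0.075 of the one used for the gene.

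**Figure D4:**
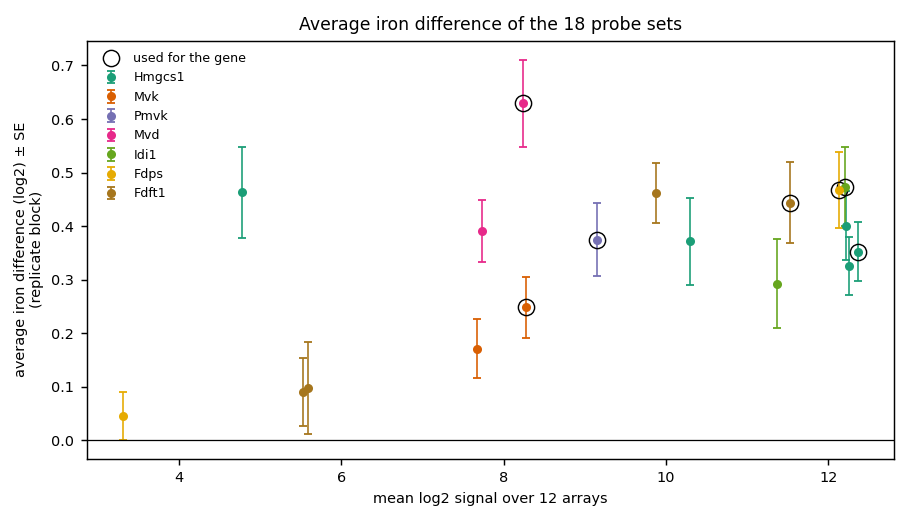
Average iron difference (log2, y axis, bars show the SE with the replicate block) of the 18 probe sets against their mean log2 signal over the 12 arrays (x axis), coloured by gene, with a ring around the probe set used for each gene. All 18 points lie above 0, and the 3 lowest are dim probe sets of Fdps and Fdft1.

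The steps that feed the pathway were less uniform. Of 5 entries on that list 3 were measured, 2 were higher with iron, and the median was 0.15. Acss2, which makes acetyl-CoA from acetate, rose by 0.26 ± 0.050 with the block (adjusted p = 0.0422). Acly, which makes it from citrate, had 0.15 ± 0.038 and did not pass, and Acat1, the mitochondrial thiolase, had -0.01 ± 0.039. Without the block 0 of the 3 passed.

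Downstream of squalene, 10 of 11 listed enzymes of sterol synthesis were measured, and 10 of 10 had a higher mean with iron, with a median of 0.35. With the block 5 rose. They were Sqle, squalene epoxidase (0.39 ± 0.057, adjusted p = 0.0138), Lss, lanosterol synthase (0.52 ± 0.066, adjusted p = 0.00787), and Cyp51, lanosterol demethylase (0.47 ± 0.076, adjusted p = 0.0205). Msmo1, a sterol methyl oxidase, rose by 0.34 ± 0.062 (adjusted p = 0.0372) and Dhcr7, the last reductase before cholesterol, by 0.42 ± 0.062 (adjusted p = 0.0144). Without the block 0 of the 10 passed. In RAW_FAC against alone, Lss was the single one of the 10 that passed with the block (adjusted p = 0.0404).

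The branches that leave farnesyl diphosphate for other products had a median near that of all genes. Of 16 listed genes of dolichol, ubiquinone and prenylation, 15 were measured, 9 were higher with iron and the median was 0.03, with 0 passing in either fit. Ranked by unadjusted p in the fit without the block, the first 3 were Dolk, dolichol kinase (0.11 ± 0.047, SE with the block), Pdss2, a subunit of the enzyme that makes the ubiquinone side chain (-0.08 ± 0.040), and Zmpste24, a protease of prenylated proteins (0.10 ± 0.041). A test between this list and the 7 genes was not made.

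Among genes of sterol sensing and uptake, 14 of 17 were measured, 9 were higher with iron and the median was 0.03. Insig1, which holds the SREBP complex in the endoplasmic reticulum and is itself an SREBP target, rose by 0.62 ± 0.082 with the block (adjusted p = 0.00882, and adjusted p = 0.431 without it), the single gene of the list that passed. Stard4, a sterol carrier, had 0.27 ± 0.060 (adjusted p = 0.0856), and Abcg1, a sterol exporter, had -0.21 ± 0.043 and was lower in 6 of 6 pairs (adjusted p = 0.0618). Srebf2, which encodes the SREBP most tied to sterol genes, had 0.14 ± 0.043 and did not pass. Of 3 listed paralogs and neighbours 1 was measured, Idi2, at 0.00 ± 0.055.

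**Figure D5:**
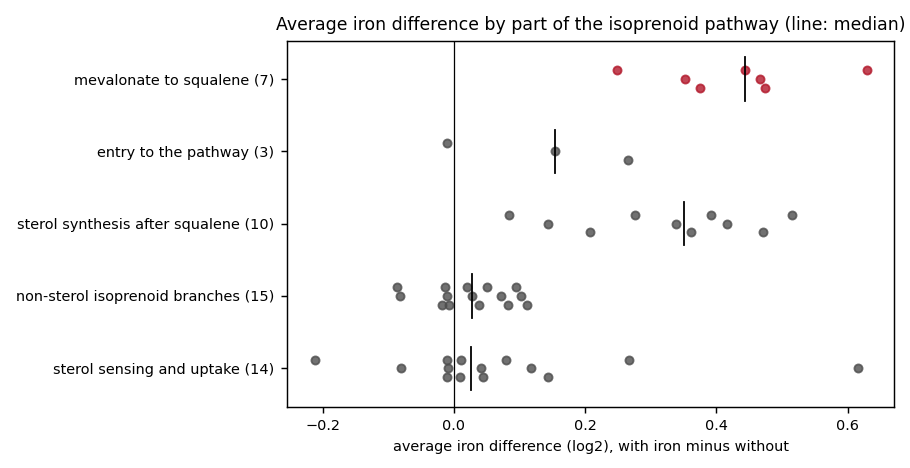
Average iron difference (log2, x axis) of each measured gene in the 7-gene set and in 4 neighbouring lists (y axis, number of genes in brackets), with the median of each list as a line. The medians are 0.44 for the 7 genes, 0.35 after squalene, 0.15 at the entry, and 0.03 in both remaining lists.

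The 10 genes whose profile over the 12 arrays was most like the mean profile of the 7 were ranked by Pearson correlation over 18187 other genes. They were Cyp51 (0.982), Msmo1 (0.969), Sqle (0.968), Lss (0.967), Insig1 (0.964), Nsdhl (0.962), Erg28 (0.953), Pgd (0.948), Slc45a4 (0.946) and Elovl6 (0.945). Once the mean of each replicate number was removed, 4 of these stayed in the top 10, namely Cyp51 (0.989), Erg28 (0.980), Nsdhl (0.979) and Elovl6 (0.968). The genes share the same 12 arrays, and the values are a description.

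Of the cell type markers, the hepatocyte marker Afp moved with iron beside these genes, with 0.45 ± 0.070 (SE with the block, limma adjusted p = 0.0168, and adjusted p = 0.80 without it), higher in 6 of 6 pairs. The other 7 measured hepatocyte markers did not pass, and the summed level of the 8 was 45500 to 46700 in FAC, 44700 to 45900 in RAW_FAC, 44400 to 46600 in RAW and 46200 to 47400 in alone on the linear scale. Of the 6 fibroblast and mesenchymal markers 1 was higher with iron, the median was -0.07 and 0 passed. The part of any of these markers in the differences of the 7 genes was not tested.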

How the data were processed

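RNA of BNL CL.2 cells was measured on 12 Affymetrix mouse arrays, 3 per group. The deposited values are log2 signals made by the authors with RMA and affy, per the submitters' processing notes, and no version was given in the sources used here. As usually defined, RMA corrects background, quantile-normalizes and summarises probes, which can compress the differences of dim probe sets. Of 45101 probe sets, 34958 named 1 gene in the platform annotation, 932 named several and 9211 none, and the last 2 kinds were left out. The probe set with the highest mean stood for each of 18194 genes.

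limma 3.58.1 (R 4.3.3, eBayes) was used to fit 4 group means to all 12 arrays. Tests were two-sided, with Benjamini-Hochberg adjustment over all genes and a threshold of 0.05. The named genes were the 7 members, the 3 genes of each list with the smallest unadjusted p for iron, any list gene past the threshold, the 10 genes most like the members, and Tfrc. Srebf2 and the cell type markers named were singled out after their values were seen. Equal replicate numbers in the titles were checked for pairing. All 18 same-number residual correlations exceeded 0.1 (0.263 to 0.529), against -0.349 to -0.0149 for different numbers. Residuals cancel out within each group, so the negative values largely follow from the positive ones and are no separate evidence. The number was also fitted as a block. The labels do not say what the numbers stand for. The number of arrays limits the precision. The members and lists were chosen with earlier results of these data known.

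Alternatives were every probe set, the mean of probe sets, genes above the median level, median centring, quantile normalization, trend and robust moderation, array weights, and leaving out each array. Their combinations with the block, 1 difference per replicate number and leaving out a whole number were chosen after seeing the data. Plots were made with Python 3.11.15 and matplotlib 3.10.9, tables with pandas 2.3.3.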

Additional observations from a re-analysis of the deposited data

How the results depend on the processing

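In 1141 recomputed iron differences of the 7 genes, 0 changed sign. Of 1113 macrophage and interaction values, none of which had an unadjusted p under 0.05 to begin with, 137 did. Several settings keep the same difference and alter only its SE or p, so these could not change a sign. Among them are the replicate block with all arrays, every probe set, genes above the median level, and trend and robust moderation. With the replicate block the calls over all genes became 4 higher and 2 lower (FAC against alone), 11 and 3 (RAW_FAC against RAW), and 26 and 11 (RAW_FAC against alone), each against 0 without it. They became 116 and 28 for the average iron effect, against 0 and 1 (6 of 7 members passed, against 0), and 10 higher for the average macrophage effect, against 2. Without the block, the 1 lower gene of the average iron effect, which was Tfrc, became 0 with every probe set, with the mean of probe sets and with trend and robust moderation. The 0 higher genes became 1 with genes above the median level, median centring, trend and robust moderation, or array weights. The 2 higher genes of the average macrophage effect became 1 with every probe set or with trend and robust moderation. With the block, every probe set gave 45 lower, genes above the median level gave 229 higher and 104 lower, and trend and robust moderation gave 250 and 131. With the block and the mean of probe sets, 1 member passed in RAW_FAC against alone. With genes above the median level, 1 passed in RAW_FAC against RAW and 2 in RAW_FAC against alone. With trend and robust moderation, 2 passed in FAC against alone, 2 in RAW_FAC against RAW and 4 in RAW_FAC against alone. Mvk passed in the average iron effect with the block under genes above the median level, trend and robust moderation, and array weights. With 1 difference per replicate number, 5 genes were higher, 1 lower and 0 members passed. The cause of these shifts was not tested.

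Leaving out 1 array at a time moved the median of the members between -0.10 and 0.048 (RAW_FAC against FAC), 0.27 and 0.51 (RAW_FAC against RAW), -0.084 and 0.20 (RAW against alone), and -0.061 and 0.10 (average macrophage effect). It also moved it between 0.34 and 0.67 (FAC against alone), 0.27 and 0.60 (RAW_FAC against alone), and -0.24 and 0.0093 (interaction). For the average iron effect the median of the members ran from 0.35 to 0.54. Genes higher ranged from 0 to 1 for RAW against alone, RAW_FAC against FAC, RAW_FAC against alone and the average iron effect, and from 0 to 12 for the average macrophage effect, 12 being without RAW replicate 1. Genes lower ranged from 0 to 1 for the average iron effect. With the block, leaving out 1 array or all 4 of a number, the average iron effect gave 0 to 88 genes higher, 0 to 23 lower and 0 to 5 members, and RAW_FAC against RAW gave 0 to 1 members. Signal limits the dim probe sets, and 3 arrays per group limit all comparisons.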
